A study of Mus musculus with 6 samples.

Results

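The genes described here encode the enzymes of the urea cycle and of amino acid breakdown in liver. They were taken as a list of 48 gene symbols, and each was read from the probe sets that the platform annotation pairs with that symbol alone, taking the brightest of them on average across the 6 arrays. Of the 48 genes, 44 were measured in this way, out of 18193 genes with such a probe set; Gls2, Sds, Sdsl and Amt were not analysed here, because no probe set was listed for their symbol alone. All 44 genes passed the filter on dim probe sets (log2 of 4 or more in 3 livers or more), as did 10009 genes in all, and each of the 44 read at least 6.82 on every array.

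RNA came from whole livers of male C57BL/6 mice aged 6 weeks. One group, called KO, was 3 mice with a conditional liver knockout of p14, the gene Lamtor2. The other, called WT, was 3 control mice of the same sex, age and background. The Cre line, the time of deletion and the liver cells in which deletion took place are not given in the sources used here, and neither is whether the controls carried a Cre transgene or floxed alleles. Each mouse gave 1 array, and the labels call the mice biological replicates, so n is 3 per group throughout and the number of arrays limits the precision.

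Amino acids that are not needed for protein synthesis lose their nitrogen, most of it by transfer to glutamate, and their carbon skeletons are burned or turned into glucose, ketone bodies or one-carbon units. The liver converts the released ammonia to urea, a pathway that begins in the mitochondria of periportal hepatocytes and ends in the cytosol. Many of the enzymes are made mainly in hepatocytes, and their transcription is known to respond to glucagon, glucocorticoids and protein intake. Lamtor2 is a subunit of the Ragulator complex of late endosomes and lysosomes, which anchors the Rag GTPases through which amino acids control mTORC1.

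Lamtor2 itself checks the labels. Its probe set read 10.08, 10.19 and 10.11 on KO 1 to KO 3 and 11.32, 11.29 and 11.35 on WT 1 to WT 3 (log2 values, as everywhere below). The KO livers thus kept 43.8% of the WT signal (difference -1.19, limma adjusted p = 0.0104). That call was lost when KO 2 (limma adjusted p = 0.0691), WT 1 (0.114), WT 2 (0.114) or WT 3 (0.0505) was left out. It was also lost with the replicate number fitted as a block, where no gene passed the test. In whole tissue, fewer cells of a type and less RNA per cell cannot be told apart, and this holds for every difference below.

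None of the 44 genes passed the test between KO and WT livers (limma, Benjamini-Hochberg adjusted p below 0.05 over 10009 genes). Over all genes tested 17 passed, which is 0.17%. The lowest adjusted p among the 44 was 0.231, for Cbs. At an unadjusted p below 0.05 there were 6 of the 44 (13.6%), namely Nags, Agxt, Gnmt and Cbs with lower and Gpt2 and Mccc1 with higher KO means, and 14.5% of all genes. The share among the amino acid genes was thus near the background.

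The differences were small. The median KO minus WT difference was -0.044 over the 44 genes and -0.037 over all genes, and 27 of the 44 (61.4%) had the lower mean in KO livers against 58.4% of all genes. The median size of a difference, ignoring its sign, was 0.11 among the 44 and 0.13 among all genes. For 41 of the 44 the 95% confidence interval lay inside a 2-fold change in either direction; the exceptions were Ass1, Gpt2 and Csad. For 31 of the 44 it lay inside a 1.5-fold change. These intervals bound each difference singly and do not show that the groups were alike.

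The 3 KO values lay wholly outside the 3 WT values for 11 of the 44 genes (25%), against 20.5% of all genes. Lower in KO were 10 genes, Nags, Got2, Hpd, Agxt, Gldc, Amdhd1, Ivd, Bhmt, Gnmt and Cbs (22.7%, against 14% of all genes), and higher was 1, Mccc1 (2.27%, against 6.54%). These counts, and the background shares of 14% and 6.54% that are also set beside other lists below, depended on how the arrays were scaled. With quantile scaling, 11.3% of all genes were separated and lower and 12.5% separated and higher. With every array centred on its median, only Nags, Gnmt, Cbs and Mccc1 were still separated, the separated genes over all genes turned to 8.22% lower and 16.6% higher, and by sign 25 of the 44 were higher and 19 lower. Nags, Gnmt and Cbs were separated in each of the 11 settings tried that kept all 6 arrays. Most of these settings could not alter separation, because they left the array values of the 44 genes unchanged. Only quantile scaling, centring and averaging over probe sets changed the values compared. Averaging could bear on Cbs alone of these genes, since Nags and Gnmt had 1 probe set each.

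**Figure D1:**
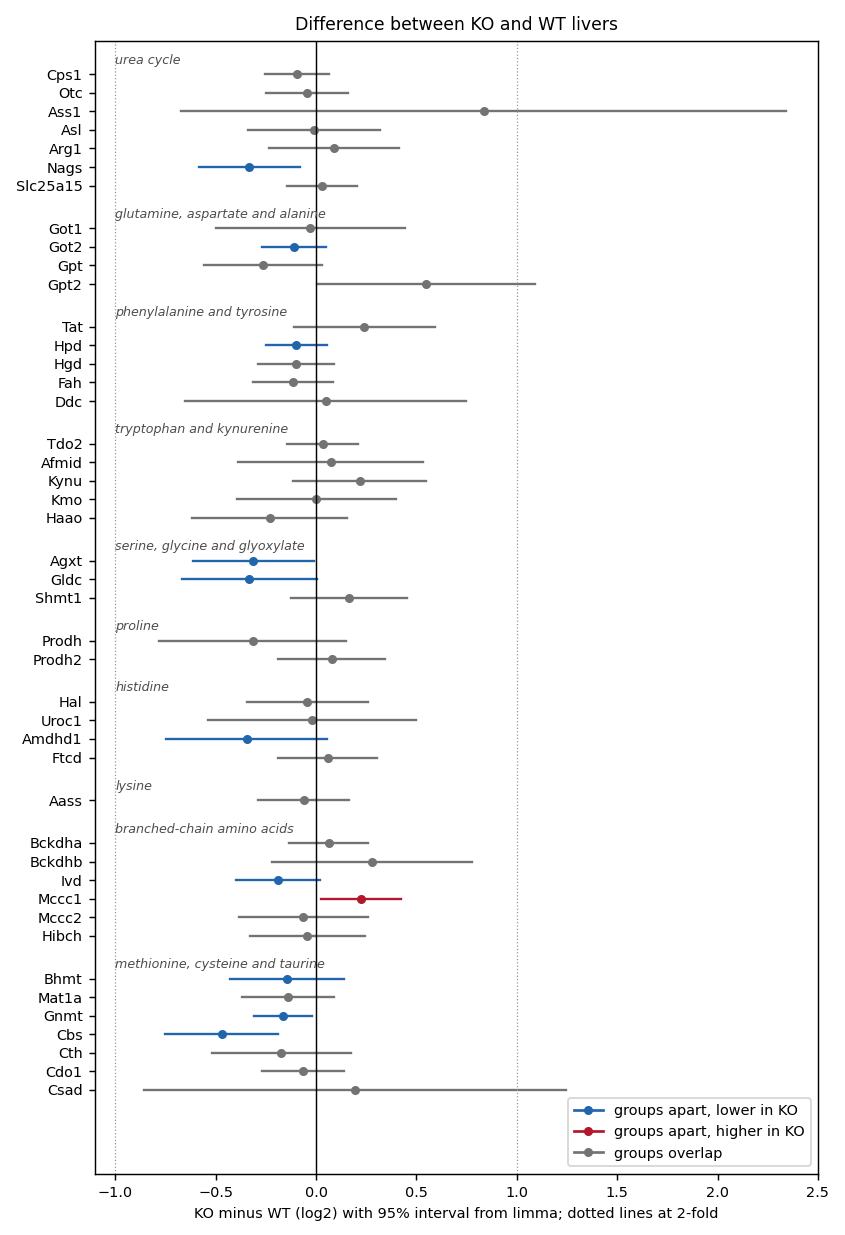
KO minus WT difference of the 44 genes in log2 units (horizontal axis), grouped by role (vertical axis); points are differences of means of 3 livers per group and bars are 95% confidence intervals from limma. Most points lie within 0.35 of 0, and the intervals of Ass1, Gpt2 and Csad are the ones that reach past a 2-fold change.

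The promoters of 5 genes are shown, those that were both separated between the groups and below an unadjusted p of 0.05. Each is the 250 bases before the annotated transcription start, from RefSeq on GRCm38.p6, read 5′ to 3′ on the gene's strand. Nags lies on the plus strand (chr11:102145263-102145512), as does Agxt (chr1:93134990-93135239). Mccc1 (chr3:36000679-36000928), Gnmt (chr17:46729166-46729415) and Cbs (chr17:31637206-31637455) lie on the minus strand. Capitals mark matches to the motifs named after the sequences.
Nags: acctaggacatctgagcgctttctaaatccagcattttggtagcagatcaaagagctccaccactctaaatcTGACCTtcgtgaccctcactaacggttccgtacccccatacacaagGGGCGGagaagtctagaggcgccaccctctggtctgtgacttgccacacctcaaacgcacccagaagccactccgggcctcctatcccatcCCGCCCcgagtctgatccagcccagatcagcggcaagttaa
Agxt: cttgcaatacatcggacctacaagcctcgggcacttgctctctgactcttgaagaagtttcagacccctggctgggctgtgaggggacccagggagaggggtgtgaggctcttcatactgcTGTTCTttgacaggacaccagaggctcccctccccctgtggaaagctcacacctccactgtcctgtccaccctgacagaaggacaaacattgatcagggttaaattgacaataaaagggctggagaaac
Mccc1: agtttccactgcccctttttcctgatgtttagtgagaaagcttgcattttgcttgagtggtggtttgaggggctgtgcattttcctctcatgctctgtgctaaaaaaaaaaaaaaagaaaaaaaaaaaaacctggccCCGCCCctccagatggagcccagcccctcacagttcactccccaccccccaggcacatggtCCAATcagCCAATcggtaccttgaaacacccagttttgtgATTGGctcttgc
Gnmt: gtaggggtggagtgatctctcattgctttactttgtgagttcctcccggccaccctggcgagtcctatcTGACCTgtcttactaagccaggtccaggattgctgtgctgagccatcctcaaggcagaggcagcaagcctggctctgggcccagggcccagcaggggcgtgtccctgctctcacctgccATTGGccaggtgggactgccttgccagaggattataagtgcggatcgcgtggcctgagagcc
Cbs: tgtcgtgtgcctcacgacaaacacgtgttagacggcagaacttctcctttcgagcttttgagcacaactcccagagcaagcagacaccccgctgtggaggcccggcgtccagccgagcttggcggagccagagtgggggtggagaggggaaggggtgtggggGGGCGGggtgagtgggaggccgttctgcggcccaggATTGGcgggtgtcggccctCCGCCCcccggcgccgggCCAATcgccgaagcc
The 6 motifs were searched as exact letters on both strands, and overlapping matches would count under each. They were the CCAAT box (CCAAT or ATTGG), the GC box (GGGCGG or CCGCCC), the nuclear receptor core (AGGTCA or TGACCT), the glucocorticoid receptor core (TGTTCT or AGAACA), a C/EBP site (TTGCNNAA or TTNNGCAA) and the cyclic AMP response element (TGACGTCA). The Cbs promoter was the richest in G and C of the 5, at 68.0% against a median of 52.4% over 32851 promoter windows, and held a CCAAT box beginning 15 bases and a GC box beginning 33 bases before the start, with 1 more of each farther upstream. Mccc1 held 3 CCAAT boxes within its last 52 bases. A nuclear receptor core lay 178 bases before the start of Nags and 181 before that of Gnmt, and a glucocorticoid receptor core 129 before that of Agxt.

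Promoters were found for 36 of the 44 genes, in 40 windows. The CCAAT box was in 47.5% of those windows and in 33.8% of all windows. The nuclear receptor core was in 32.5% against 14%, the GC box in 40.0% against 32.7%, and the C/EBP site in 4 of the 40 windows against 9.56%. The glucocorticoid receptor core was in 7.5% against 16.1%, and the cyclic AMP response element in none of the 40 against 1.55%. A match of letters is not a binding site, and an absent match says only that these letters are not in this window.

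Among the 7 genes of the urea cycle proper none passed the test, and the median difference was -0.010. Only Nags had separated groups (14.3%, against 20.5% of all genes). Carbamoyl phosphate synthetase, Cps1, which commits ammonia to the cycle, read 15.20, 15.33 and 15.29 in KO and 15.40, 15.38 and 15.33 in WT livers. Its difference of -0.10 had an interval from -0.26 to 0.06 (limma adjusted p = 0.509). Nags makes N-acetylglutamate, the obligate activator of Cps1. It read 10.14, 10.27 and 10.09 in KO and 10.67, 10.41 and 10.41 in WT livers. Every KO liver was below every WT liver, by a mean of -0.33 (SE 0.10, interval -0.59 to -0.08, adjusted p = 0.285).

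Ornithine transcarbamylase, Otc, forms citrulline in the mitochondrion. Its values were 14.29, 14.48 and 14.50 in KO and 14.45, 14.53 and 14.42 in WT livers, and the groups overlapped. The mitochondrial ornithine carrier Slc25a15 read 13.80, 13.75 and 13.65 against 13.65, 13.77 and 13.69, also with overlap. Argininosuccinate lyase, Asl, read 14.08, 14.41 and 13.94 against 14.23, 14.13 and 14.10. Arginase, Arg1, which releases urea, read 14.84, 15.10 and 14.83 against 15.05, 14.78 and 14.68. The differences of these 4 genes lay between -0.043 and 0.090, and in each the KO and WT values were intermixed.

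Probe sets disagreed on argininosuccinate synthetase, Ass1, which joins citrulline to aspartate. The probe set listed for Ass1 alone was dim, and read 7.31, 9.27 and 8.83 in KO and 8.21, 7.88 and 6.82 in WT livers. Its difference of 0.83, the largest of the 44, had an interval from -0.67 to 2.34 (adjusted p = 0.539), and the groups overlapped. A far brighter probe set is listed for both Ass1 and Gm5424 and so fell outside the rule. It read 15.25, 15.38 and 15.46 in KO and 15.50, 15.56 and 15.47 in WT livers, every KO value below every WT value, with means of 15.36 and 15.51. The margin between KO 3 and WT 3 was narrow (15.464 against 15.471). The direction of Ass1 was therefore not settled by these arrays.

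**Figure D2:**
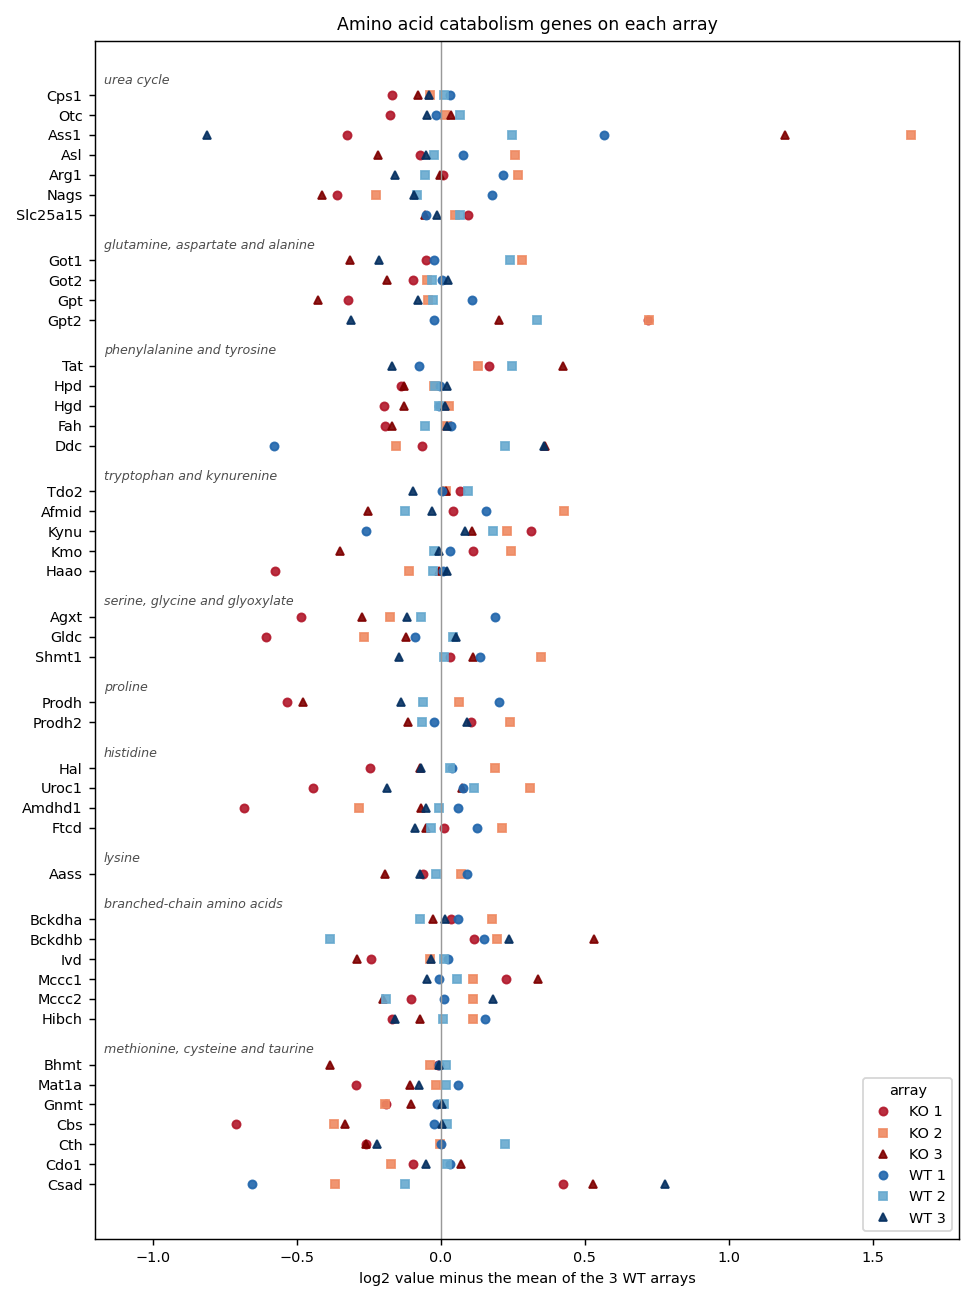
Deviation of each of the 44 genes (rows, ordered by role) from its WT mean in log2 units (horizontal axis); every point is 1 array, red shades for KO and blue shades for WT. The KO 1 and KO 3 points lie below the WT mean for 29 and 31 of the 44 genes and the KO 2 points for 18; the WT 1, WT 2 and WT 3 points do so for 17, 21 and 29.

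The aminotransferases that link amino acids to glutamate showed the largest positive difference outside Ass1. Gpt2, the mitochondrial alanine aminotransferase, read 12.60, 12.60 and 12.08 in KO and 11.85, 12.21 and 11.56 in WT livers. KO 3 lay below WT 2, so the groups overlapped, with a difference of 0.55 (interval 0.005 to 1.09, adjusted p = 0.343). All 4 of its probe sets had the higher KO mean, by 0.52 to 0.56. Gpt, the cytosolic form, went the other way: 12.87, 13.15 and 12.77 in KO against 13.30, 13.17 and 13.11 in WT livers, a difference of -0.27 with overlap (adjusted p = 0.366).

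The log2 ratio of Gpt2 to Gpt within an array was -0.27, -0.55 and -0.69 in KO and -1.45, -0.96 and -1.55 in WT livers, so all KO ratios exceeded all WT ratios. The group difference was 0.81, with an exact two-sided permutation p of 0.1, the smallest that 3 against 3 can give, and 0.3 after adjustment over the 3 paralog pairs compared. For the aspartate aminotransferases, mitochondrial Got2 against cytosolic Got1, the ratio differed by -0.082 (exact p = 0.7). On the probe set used, Got2 was lower in every KO liver, at 14.16, 14.21 and 14.07 against 14.26, 14.23 and 14.28, but by only -0.11. The margin between KO 2 and WT 2 was narrow, and the separation was lost with every array centred on its median. Dimmer Got2 probe sets gave -0.018 and -0.22, each with overlap. Got1 differed by -0.029 with overlap.

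**Figure D3:**
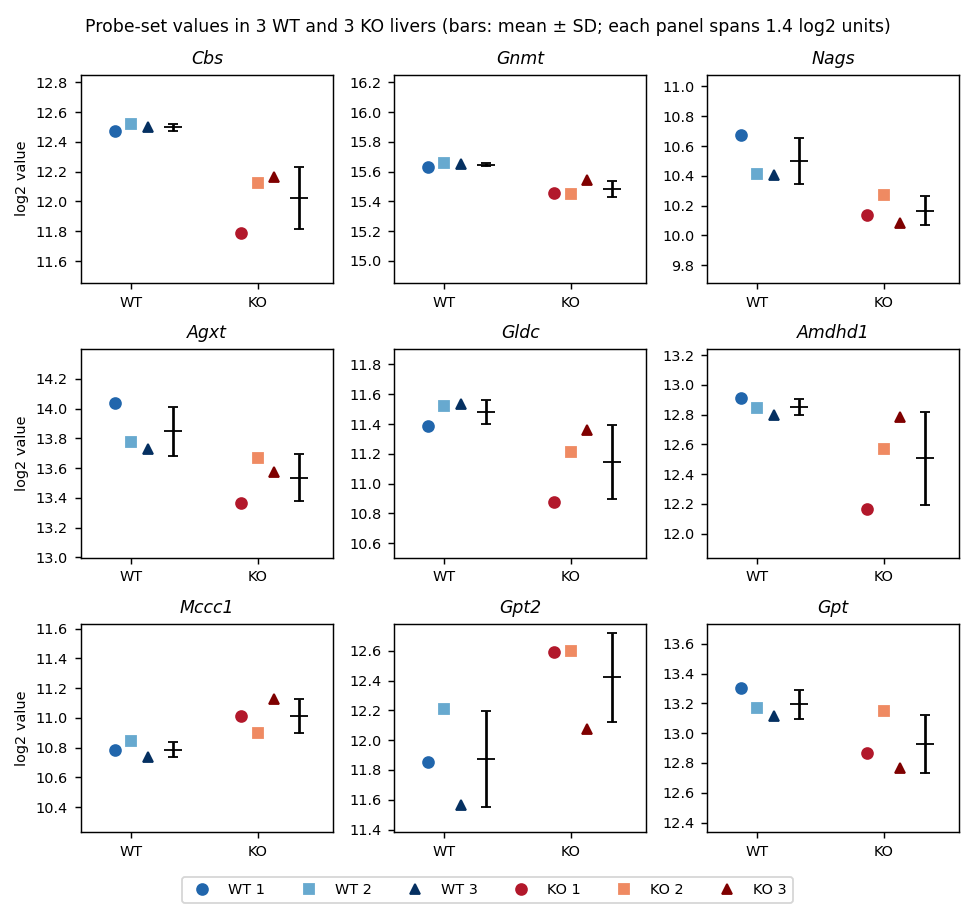
Log2 values of 9 genes on each array, WT at the left and KO at the right of each panel; bars are the mean and SD of 3 livers, and every panel spans the same range of 1.4 log2 units. Cbs, Gnmt, Nags, Agxt, Gldc and Amdhd1 have all KO points below all WT points, Mccc1 has them above, and Gpt2 and Gpt overlap.

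Sulfur amino acid metabolism held the most genes with a lower KO mean, 6 of 7 (85.7%, against 58.4% of all genes). The median difference was -0.14, and none passed the test. With every array centred on its median, 43.6% of all genes had the lower KO mean. Cbs, cystathionine beta-synthase, joins homocysteine to serine and so opens the route from methionine to cysteine. It read 11.79, 12.13 and 12.17 in KO and 12.47, 12.52 and 12.50 in WT livers, every KO liver below every WT liver. The difference was -0.47 (SE 0.11, interval -0.75 to -0.19, adjusted p = 0.231), and a second Cbs probe set gave -0.42 with separated groups as well. Gnmt, glycine N-methyltransferase, which consumes surplus S-adenosylmethionine, read 15.46, 15.45 and 15.54 against 15.63, 15.66 and 15.65. It was lower in each KO liver, but by only -0.16 (adjusted p = 0.317), at a level near the top of the scale, where the highest value on an array was 16.22 to 16.33.

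The other methionine-cycle genes were bright. Bhmt, which remethylates homocysteine with betaine, read 15.65, 15.62 and 15.27 in KO and 15.65, 15.68 and 15.65 in WT livers, and its separation rested on margins far smaller than the drop on KO 3. Mat1a, the hepatic S-adenosylmethionine synthetase, differed by -0.14, Cth, which cleaves cystathionine, by -0.17, and Cdo1, the cysteine dioxygenase, by -0.067, all with overlap. Csad, which leads from cysteine to taurine, was the most scattered of the group: it ran from 9.86 to 10.76 in KO and from 9.58 to 11.01 in WT livers (difference 0.19).

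Of the 3 genes of serine, glycine and glyoxylate metabolism, 2 were separated and lower in KO, where 14% of all genes were. Agxt, the peroxisomal enzyme that detoxifies glyoxylate to glycine, read 13.36, 13.67 and 13.57 in KO and 14.03, 13.78 and 13.73 in WT livers. Gldc, the decarboxylase of the glycine cleavage system, read 10.87, 11.21 and 11.36 against 11.39, 11.52 and 11.53. Their differences were -0.31 (adjusted p = 0.338) and -0.33 (adjusted p = 0.345), and in Gldc the gap between KO 3 and WT 1 was much smaller than the spread within the KO group; without KO 1 the difference was -0.20. Shmt1, the cytosolic serine hydroxymethyltransferase, differed by 0.16 on the probe set used, but its 4 probe sets ran from -0.53 to 0.52.

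In phenylalanine and tyrosine breakdown the differences of the 5 genes ran from -0.12 to 0.24, and none passed the test. Tat, the tyrosine aminotransferase and a classic target of glucocorticoids, read 14.85, 14.81 and 15.10 in KO and 14.60, 14.92 and 14.51 in WT livers. The groups overlapped through KO 1, KO 2 and WT 2 (difference 0.24, adjusted p = 0.461). Hpd, the next enzyme, read 15.64, 15.75 and 15.65 against 15.78, 15.76 and 15.80, which separated the groups by a difference of -0.10. The margin between KO 2 and WT 2 was narrow (15.755 against 15.760), and the separation was lost with every array centred on its median. Hgd, Fah and Ddc overlapped between the groups, at -0.099, -0.12 and 0.047. A dimmer Hgd probe set pointed the other way, with a difference of 0.59 and separated groups.

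Tryptophan breakdown along the kynurenine pathway had no gene with separated groups among 5, where 20.5% of all genes were separated. Tdo2, which takes the first step in liver, differed by 0.033 and Afmid by 0.072, while Kmo differed by 0.0017. Kynu, the kynureninase, read 12.07, 11.99 and 11.87 in KO and 11.50, 11.94 and 11.84 in WT livers, where WT 1 alone was low (difference 0.22). Haao, which feeds the pathway towards NAD, read 13.03, 13.50 and 13.60 against 13.62, 13.58 and 13.63, where KO 1 alone was low (difference -0.23). Without WT 1 the difference of Kynu was 0.086, and without KO 1 that of Haao was -0.059.

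Histidine is broken down by Hal, Uroc1, Amdhd1 and Ftcd in turn. Amdhd1, the imidazolonepropionase, read 12.17, 12.57 and 12.78 in KO and 12.91, 12.84 and 12.80 in WT livers. It was separated with a difference of -0.35 (adjusted p = 0.382), although KO 3, at 12.78, lay just under WT 3, at 12.80, and a dimmer probe set gave 0.060. Without KO 1 the difference was -0.18. Ftcd, which passes the formimino group to folate, read 13.31, 13.51 and 13.25 against 13.42, 13.26 and 13.21, with overlap. Hal and Uroc1 differed by -0.044 and -0.022.

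For proline, Prodh read 11.97, 12.57 and 12.03 in KO and 12.71, 12.44 and 12.37 in WT livers, and KO 2 lay among the WT values (difference -0.32, adjusted p = 0.465). Prodh2, which oxidises hydroxyproline, read 11.51, 11.64 and 11.29 against 11.38, 11.34 and 11.49. The ratio of Prodh2 to Prodh differed by 0.39 between the groups (exact two-sided permutation p = 0.2, adjusted 0.3). Aass, the bifunctional enzyme that starts lysine breakdown, read 13.27, 13.40 and 13.14 against 13.42, 13.31 and 13.26, a difference of -0.062.

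The branched-chain genes were split evenly, with 3 higher and 3 lower among 6 (50% lower, against 58.4% of all genes). Mccc1, the biotin-bearing subunit of methylcrotonyl-CoA carboxylase in leucine breakdown, read 11.01, 10.90 and 11.12 in KO and 10.78, 10.84 and 10.74 in WT livers. It was the 1 gene of the 44 that was higher in every KO liver, by a mean of 0.22 (SE 0.080, interval 0.026 to 0.42, adjusted p = 0.317). A second Mccc1 probe set gave 0.0040. Its partner subunit Mccc2 gave -0.064 on the probe set used and 0.067 and 0.65 on 2 others, the last with separated groups.

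Ivd, which acts just before that carboxylase, read 11.78, 11.99 and 11.73 in KO and 12.05, 12.04 and 11.99 in WT livers. The separation was by a narrow margin, between KO 2 and WT 3, with a difference of -0.19 (adjusted p = 0.369). A dimmer Ivd probe set gave -0.077 with overlap. Bckdha and Bckdhb, the subunits of the branched-chain ketoacid decarboxylase, differed by 0.062 and 0.28, and Hibch of valine breakdown by -0.043, all with overlap. Bckdhb read 13.02, 13.10 and 13.44 in KO and 13.05, 12.52 and 13.14 in WT livers, where WT 2 alone was low, and its difference was 0.087 without WT 2 and 0.15 without KO 3.

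Several genes had more than 1 probe set, which gave a second reading on the same RNA. Among the 44, 16 had further probe sets past the filter, 25 probe sets in all. The direction was that of the probe set used in 16 of the 25 and the opposite in 9. Gpt2 and Cbs had further probe sets close to the value used, whereas Otc, Hgd, Shmt1, Uroc1, Amdhd1, Mccc2 and Hibch had at least 1 of the opposite sign.

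**Figure D4:**
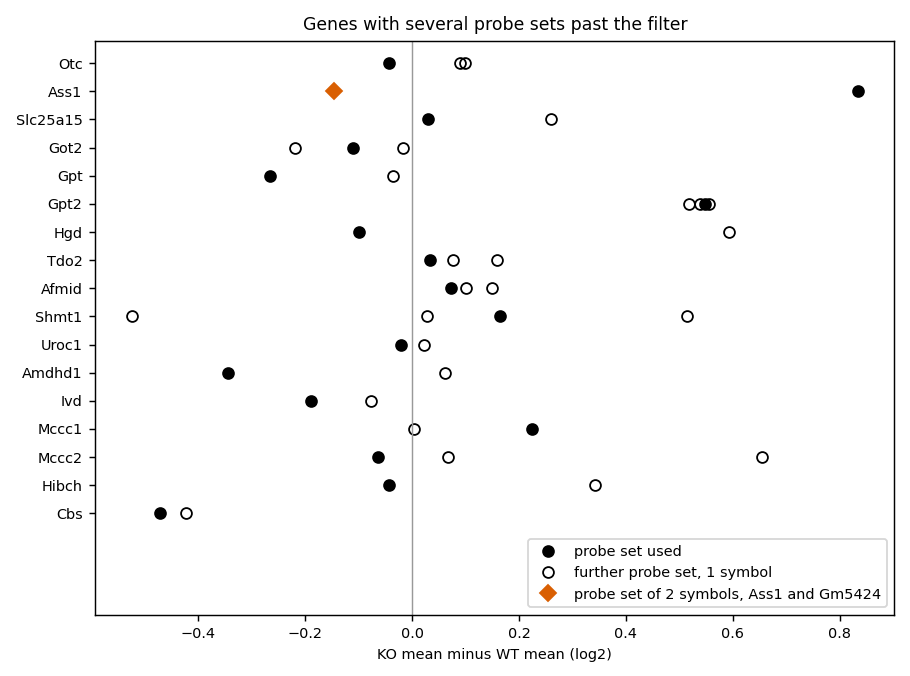
KO minus WT difference in log2 units (horizontal axis) for every probe set of the genes with several (rows); filled points are the probe sets used, open points further probe sets of the same symbol, and the diamond is the probe set listed for Ass1 and Gm5424 together. Points of Gpt2 and of Cbs lie close together, and those of Ass1, Hgd, Shmt1 and Mccc2 spread to both sides of 0.

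The 3 KO livers were not alike over these genes. The median deviation of the 44 genes from their WT means was -0.10 on KO 1, 0.037 on KO 2 and -0.092 on KO 3, and from -0.049 to 0.028 on the WT arrays. Over all genes the same medians lay between -0.034 and -0.032 on the KO arrays. KO 1 held the lowest of the 6 values for 15 of the 44 genes (34.1%, against 24.3% of all genes) and KO 3 for 14 (31.8%, against 16.6%). KO 2 held the lowest value for 2 genes (4.55%, against 19.3%) and the highest for 14 (31.8%, against 16.4%).

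**Figure D5:**
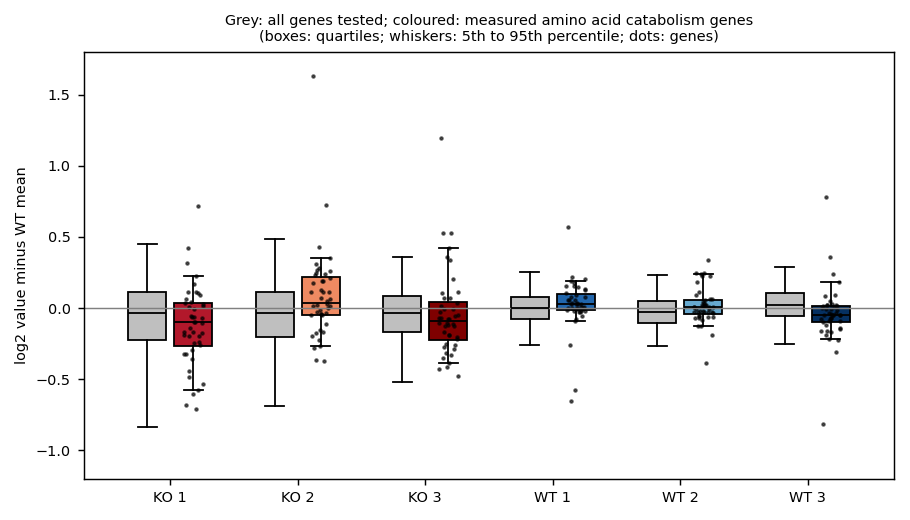
Deviation from the WT mean in log2 units (vertical axis) on each array (horizontal axis), for all 10009 genes (grey boxes) and the 44 amino acid genes (coloured boxes, with 1 dot per gene); boxes show quartiles and the median, and whiskers run from the 5th to the 95th percentile. The median of the 44 genes is below 0 on KO 1 and KO 3 and above it on KO 2.

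Other measures differed between the arrays too, and their part in the differences above was not tested. The 18S rRNA controls read 8.50 to 9.24 in KO and 7.77 to 8.44 in WT livers, and the 3′ minus 5′ difference of the pyruvate carboxylase controls 3.51 to 3.58 against 3.99 to 4.85. Macrophage markers were lower in KO for 12 of 12 genes (array means 8.35 to 9.64 against 9.91 to 10.04). So were endothelial markers for 9 of 10 and stellate and fibroblast markers for 8 of 9, where 58.4% of all genes were lower. Of these lists only the endothelial Lyve1 passed the test. Acute phase genes were higher in KO for 14 of 15, with array means of 14.60, 14.51 and 13.05 in KO and 12.93 to 13.18 in WT livers. Hepatocyte markers were bright in every liver: 8 of 10 were measured, none passed the test, and the array means were 15.33 to 15.35 in KO and 15.41 to 15.42 in WT livers, a median difference of -0.054. Skeletal muscle markers had a mean of 11.86 on WT 2 and of 2.41 to 2.62 on the other arrays. Without WT 2 none of the 44 genes passed the test, and 17 were separated (32.7% of all genes were then separated).

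A wider list of 98 other genes of nitrogen and amino acid metabolism placed these results beside their pathways. Of these, 89 had a probe set and 81 were tested, and 1 passed: Crym, which was lower. Crym encodes a ketimine reductase of lysine breakdown that also binds thyroid hormone. It read 3.67 on all 3 KO arrays, below the filter level of 4, so it entered the test only through the WT group, and 7.47, 7.36 and 8.33 on WT 1 to WT 3, at least 13.2-fold lower in KO when that level stands for them (adjusted p = 0.0163). The call was lost without KO 1 (limma adjusted p = 0.0830), KO 2 (0.120), WT 1 (0.126) or WT 2 (0.114) and with no filter (0.148). It was also lost with the replicate number fitted as a block, where no gene passed the test. Over the 81 genes the median difference was -0.019, with 35 higher and 46 lower (56.8% lower, against 58.4% of all genes). Separated groups were seen for 22 (27.2%, against 20.5% of all genes).

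Within ammonia, ornithine and arginine metabolism 10 of 12 other genes had the lower KO mean (83.3%, against 58.4% of all genes) and 0 passed the test. Ddah1, which hydrolyses methylated arginines, read 11.58, 12.28 and 12.47 in KO and 12.99, 12.73 and 12.79 in WT livers (difference -0.73, adjusted p = 0.298, and -0.46 without KO 1). Aldh18a1, which makes the precursor of proline and ornithine, was dim in all livers (difference -0.63, adjusted p = 0.319). It read 3.99, 3.34 and 4.03 in KO and 4.59, 4.13 and 4.52 in WT livers. KO 1 and KO 2 lay below the filter level of 4, so the gene entered the test only because of the WT group. Among 11 other genes of aromatic amino acids 5 were separated, all lower (45.5%, against 14% of all genes). They included Gchfr, the feedback regulator of tetrahydrobiopterin synthesis (difference -0.22), and the aminotransferase Kyat3 (-0.41).

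Proline and histidine had 2 other genes tested. Aldh4a1, the dehydrogenase that follows both Prodh and Prodh2, read 11.66, 11.87 and 11.81 in KO and 12.09, 12.10 and 12.08 in WT livers, with every KO value lower (difference -0.31, adjusted p = 0.231). Pycrl overlapped between the groups at -0.093. In methionine, one-carbon and sulfur metabolism 9 of 14 were lower (64.3%, against 58.4% of all genes). Among them was the folate dehydrogenase Aldh1l1, with 14.43, 14.70 and 14.67 in KO against 14.98, 14.87 and 14.97 in WT livers. Its difference was -0.34 (limma adjusted p = 0.250), and -0.019 with the mean of its probe sets. Gclm, a subunit of the enzyme that starts glutathione synthesis, was higher in every KO liver (0.21).

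Serine, glycine, threonine and glyoxylate genes outside the 44 had 10 of 14 higher by sign (28.6% lower, against 58.4% of all genes). Of these, 3 were separated (21.4% of the 14, against 6.54% of all genes). Ddo, the D-aspartate oxidase, read 8.93, 9.04 and 8.38 in KO and 8.17, 8.19 and 8.25 in WT livers (difference 0.58, adjusted p = 0.285), and of the 16 alternatives it passed the test only when KO 3 was left out (adjusted p = 0.0324). With the mean of its probe sets its difference was 0.25. Hoga1, a mitochondrial enzyme of hydroxyproline breakdown, differed by 0.21. Among 14 other branched-chain and propionate genes 4 were separated and higher (28.6%, against 6.54% of all genes) and 1 was separated and lower (7.14%, against 14%). Those with the smallest p were Ppm1k, the phosphatase that activates the ketoacid dehydrogenase (0.35), and Dbt, that dehydrogenase's transacylase core (-0.33). With every array centred on its median, 16.6% of all genes were separated and higher, and the lists outside the 44 were not counted again. Of 9 amino acid transporters, only Slc6a13 was separated, and it was lower by -0.29 (11.1%, against 14% of all genes). Slc43a1 was dim and overlapped (0.44, and 0.064 without KO 2).

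Regulators of these pathways did not pass the test either, 0 of 15. Of these, 4 were separated (26.7%, against 20.5% of all genes). Cebpa and Hnf4a (-0.20) were lower (13.3%, against 14%), and Creb3l3 (0.23) and Sirt3 (0.12) were higher (13.3%, against 6.54%). Cebpa, a transcription factor known to drive urea cycle genes in liver, read 12.83, 12.82 and 12.83 in KO and 13.25, 12.95 and 13.22 in WT livers, every KO liver lower (difference -0.32, adjusted p = 0.283). Nr3c1, the glucocorticoid receptor, read 10.80, 10.96 and 11.01 against 10.81, 10.67 and 10.64, with overlap (difference 0.22, adjusted p = 0.338).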

How the data were processed

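Expression was measured on Affymetrix arrays from 6 livers, 1 array per mouse. The deposited values are log2 probe-set values made by the authors with GCRMA 2.16.0 in R 2.9.1, per the submitters' processing notes; the probe-level files were not used here. The lowest deposited value was 2.18, and 28.9% of all values lay at it, so differences of dim probe sets are understated. No further normalization was applied. Each gene took its brightest probe set with 1 symbol (34945 of 45101 probe sets), genes had to reach log2 4 on 3 arrays or more, and 10009 were fitted with limma 3.58.1 (lmFit and eBayes, R 4.3.3) and adjusted by Benjamini-Hochberg. The test was checked on simulated arrays with known changes and noise drawn independently for each gene and array. That check does not cover variation shared by many genes on an array.

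The genes, the pathway and marker lists and the tests were chosen with earlier results of these data known. Values on every array are given for genes with separated groups and a difference of at least 0.3, urea cycle genes, and the 2 genes of each role with the smallest p; other lists give their called genes or their 2 with the smallest p. Got2, Bhmt, Bckdhb and Csad fell outside this rule and were added after their values were seen, as were the regulators and zonation genes named. Paralog pairs were planned as description without a test, and their ratios were nonetheless compared by exact permutation in scipy 1.17.1. Alternatives were the filter, centring or quantile scaling, the probe-set rule, a floor, array weights, a trended prior, a replicate block and leaving out each array.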

Additional observations from a re-analysis of the deposited data

How the results depend on the processing

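Over 16 alternatives, 0 of the 44 amino acid genes passed the test, as with the settings reported; their lowest adjusted p ran from 0.131 without KO 3 to 0.495 without WT 1. Of 704 gene values under alternatives 664 kept their direction and side of the threshold, and 27 genes did so in direction throughout. The changed filters, the floor, testing every probe set, the trended prior and the replicate block left each of these differences unchanged. In those alternatives no direction could turn, so the 664 overstate how far direction was put to the test. The count of all genes passing, 17, became 3 with no filter and 0 with a replicate block, and ran from 1 to 140 when 1 array was left out (140 without KO 3; 1 without KO 2, WT 1 or WT 2; 6 without KO 1 and 5 without WT 3). Separated genes, 11 of 44, became 4 with arrays centred on the median and 12 to 20 when 1 array was left out, where the background rose too (30.3% of all genes without KO 2, against 20 of 44). The median difference became 0.023 with centring, as that of all genes moved to 0.029, and ran from -0.13 without KO 2 to -0.029 without KO 3. The cause was not tested.

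With centring the sign turned for Otc (0.023), Asl (0.057), Got1 (0.037), Hal (0.022), Uroc1 (0.045), Aass (0.0044), Mccc2 (0.0023) and Hibch (0.023). With the mean of all probe sets of a gene it turned for Otc (0.049), Hgd (0.25), Uroc1 (0.00057), Mccc2 (0.22) and Hibch (0.15). With 1 array left out, the difference ran through 0 for Aass (-0.13 to 0.0033), Afmid (-0.11 to 0.24), Asl (-0.14 to 0.094), Csad (-0.13 to 0.58), Ddc (-0.24 to 0.22), Ftcd (-0.019 to 0.12), Got1 (-0.19 to 0.11), Hal (-0.16 to 0.057), Hibch (-0.12 to 0.033), Kmo (-0.12 to 0.18), Mccc2 (-0.16 to 0.027), Otc (-0.082 to 0.024), Prodh2 (-0.0043 to 0.17), Pycrl (-0.15 to 0.011), Slc25a15 (-0.0036 to 0.070), Tdo2 (-0.016 to 0.079) and Uroc1 (-0.19 to 0.19). With the reported settings the groups of these genes overlapped; among the alternatives, Mccc2 was separated with the mean of all probe sets, Asl, Hgd and Hal without KO 2, Kmo and Prodh2 without KO 3, and Tdo2 without WT 2.

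The labels number the mice 1 to 3 in both groups, but same-numbered arrays did not deviate together (correlations -0.086, -0.079 and -0.14), so the numbers were not taken to pair the livers; with the block the lowest adjusted p among the 44 was 0.332.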

Other observations

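The enzymes of the urea cycle lie in the periportal zone of the liver lobule, and 10 further periportal genes were read for comparison. Of these, 9 had the higher KO mean (10% were lower, against 58.4% of all genes), with a median difference of 0.19. The groups were separated for 4 (40%, against 6.54% of all genes for separated and higher). In limma's test 0 passed, and 3 had an unadjusted p below 0.05. The list was chosen with earlier results of these data known, and the genes named from it after their values were seen. These shares are therefore description only. Among the 7 urea cycle genes 0 were separated and higher, and their median difference was -0.010. Sult5a1, a sulfotransferase gene, read 8.92, 8.82 and 7.68 in KO and 5.52, 6.38 and 6.53 in WT livers (difference 2.34, adjusted p = 0.167). G6pc, the catalytic subunit of glucose-6-phosphatase, which releases glucose made from amino acid carbon, read 13.71, 13.43 and 13.91 against 11.53, 12.65 and 13.16 (difference 1.24, adjusted p = 0.304).

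Of 13 pericentral genes, 11 had the lower KO mean (84.6%, against 58.4% of all genes), with a median difference of -0.24. The groups were separated for 3 (23.1%, against 14% of all genes for separated and lower). In limma's test 0 passed, and 3 had an unadjusted p below 0.05. This list and the genes named from it were chosen in the same way as the periportal ones. Axin2, a target of Wnt signalling, read 5.58, 4.95 and 4.91 in KO and 6.83, 6.67 and 6.33 in WT livers (difference -1.46, adjusted p = 0.129). Cyp7a1, the rate-limiting enzyme of bile acid synthesis, read 12.89, 13.07 and 12.87 against 13.94, 13.25 and 13.65 (difference -0.67, adjusted p = 0.250). The macrophage, acute phase and control-probe values given above differ between the same arrays, and their part in these differences was not tested.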
